A study of Caenorhabditis elegans with 20 samples.

Results

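The regions described here are 1 kb bins of chromosome X of the nematode C. elegans that carry the repressive mark H3K27me3 and are poor in the histone variant H3.3. They were taken as the bins of X with a start below 12130001 (genome build WBcel215) whose log2 ratio of immunoprecipitated (IP) over input chromatin was above 0 for H3K27me3 in the wild type and below 0 for OLLAS-tagged H3.3. These thresholds gave 8270 bins, which were 68.2% of the 12130 bins of this left part of X and 8.25% of the 100269 nuclear bins. Of the other left X bins, 2749 (22.7%) were marked by H3K27me3 but not poor in H3.3, here called H3.3-rich, and 1111 (9.16%) were low in H3K27me3. The bins were thus selected on wild-type H3K27me3 and on H3.3 OLLAS, and the values of these tracks are given as a description only.

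H3K27me3 is written by Polycomb repressive complex 2 (PRC2), whose catalytic subunit in the worm is MES-2, and it is associated with silent genes. The X chromosome of worm germ cells is largely silent and carries this mark, whereas H3.3 is deposited outside of replication, mainly in active chromatin. The oncohistone mutation K27M exchanges the lysine methylated by PRC2 for methionine and is known to inhibit the complex. H3K36me3 marks transcribed genes and is antagonistic to methylation of H3K27 on the same histone tail.

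Native ChIP-seq of MNase-digested chromatin was performed on total nuclei of young adult worms grown at 20 °C, a preparation enriched for germ cell nuclei in which somatic nuclei remain, so that a change in the mark and a change in the mix of cells cannot be told apart. H3K27me3 was measured, with an antibody against H3K27me2/me3, in 6 strains. The strains without K27M were the wild type (N2), the H3-like strain and the duplication strain. The H3-like strain (FAS100) has the allele uge67 of the H3.3 gene his-72 on chromosome III, with the changes A87S, A88V, I89A and G90M, which give H3.3 the chaperone motif of canonical H3. The duplication strain (CGC42) carries mnDp10 [umnls31], a duplication labelled (X;I), together with the unc-3 allele e151 on X. Each had a counterpart with K27M. These were H3.3K27M (FAS58), in which his-72 has the allele uge40 with K27M, H3-like K27M (FAS104), with the allele uge68 that adds K27M to the H3-like changes, and duplication H3.3K27M (FAS93), which by its label joins uge40 to mnDp10 [umnls31] and to unc-3 e151. The histone itself was measured through the OLLAS tag in the H3.3 OLLAS strain (FAS107, tagged his-72 allele uge69) and in the H3.3K27M OLLAS strain (FAS119, tagged his-72 allele uge79 with K27M). H3K36me3 was measured in N2 and FAS58. The worm has further genes for H3.3 and H3, for which the labels name no change.

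Each of the 20 libraries stood alone in its group (10 IP and 10 input libraries, 1 per group), and the tracks pooled those replicates that the authors kept, so that the spread between biological replicates of a strain is not known here. Whole reads recovered from the tracks gave a median depth over the selected bins of 31.2 to 522 IP reads and 23.6 to 296 input reads per 100 bp, with the fewest in the H3K36me3 libraries. The authors scaled the tracks to equal read numbers, and a higher value therefore means a larger share of the reads of that library, not more of the mark per cell. In the input of the duplication strain, the part of X right of the selected bins had 1.36 times the reads of the autosomes, whereas the ratio was 0.970 in the library labelled duplication H3.3K27M and 0.944 to 0.976 in the other inputs. The extra copy of right X that the label of that library names was thus not seen in its reads, and it is set beside the duplication strain by its label only. The gaps and the limma counts that use it are also given without it, and the other values that rest on it name it. Over the selected bins the ratio of input to the autosomes was 0.876 in the duplication strain and 0.930 to 0.983 in the other libraries.

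In the 3 strains with K27M, the H3.3-poor marked bins of left X held more H3K27me3 signal over input than in the 3 strains without it. In the wild type, whose values chose the bins, the median log2 IP over input was 0.43. The H3-like strain, which took no part in the choice, had a median of 0.44 (quartiles 0.33 and 0.54). Of the selected bins 96.4% were above 0 there, against 64.3% of all nuclear bins and 97.1% of autosomal bins that met the same thresholds. In H3.3K27M the median was 1.23 (quartiles 1.13 and 1.31). In H3-like K27M it was 1.51 (quartiles 1.32 and 1.66). In both of these strains over 99% of the bins were above 0, at 99.4% and 99.5%, respectively. In H3-like K27M this held for 9.53% of all autosomal bins and for 17.6% of those that met the same thresholds. The duplication strains had no log2 track in 1 kb bins, and their ratios were computed from recovered reads. The median was 0.57 in the duplication strain (quartiles 0.32 and 0.84) and 1.22 in duplication H3.3K27M (quartiles 1.10 and 1.33). On this scale of recovered reads the wild type was at 0.53 and H3-like at 0.42, while H3.3K27M was at 1.29 and H3-like K27M at 1.48, so that the 3 strains with K27M did not overlap the 3 without it.

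**Figure D1:**
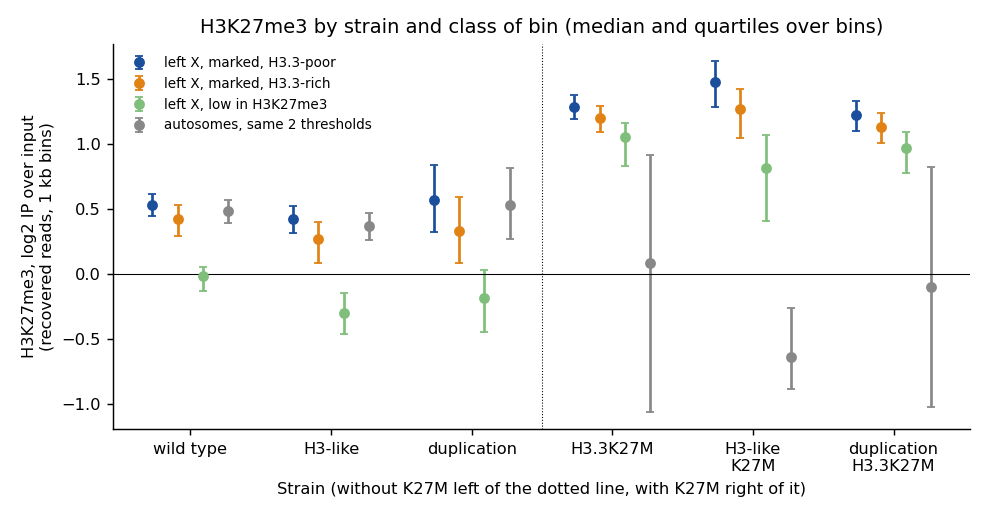
Median (points) and quartiles (bars) over 1 kb bins of H3K27me3 as log2 IP over input from recovered reads, for 6 strains and 4 classes of bin. The H3.3-poor marked bins of left X lay at 0.42 to 0.57 without K27M and at 1.22 to 1.48 with it, while autosomal bins that met the same thresholds went from 0.37 to 0.53 down to between -0.64 and 0.08.

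The same thresholds, applied to the autosomes, were met by 38002 bins, and without K27M these were nearly level with the selected X bins. The selected bins exceeded them in mean input-subtracted signal by 3.37 (wild type), 3.70 (H3-like) and 2.87 (duplication) scaled reads per 100 bp. With K27M the gap was 124.6 (H3.3K27M), 114.7 (duplication H3.3K27M) and 203.2 scaled reads (H3-like K27M). Every strain with K27M thus had a larger gap than every strain without it. Over the strains that did not choose the bins, the gap was 148 ± 48.5 scaled reads with K27M (SD, n = 3) and 3.28 ± 0.586 without (SD, n = 2), a difference of 144.2. A two-sided exact permutation test gave p = 0.2, the smallest value that 2 strains against 3 allow, and the difference was 160.6 without the library labelled duplication H3.3K27M.

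Against all autosomal bins the pattern was alike in direction. The selected bins were above the autosomes by 47.7 (wild type), 40.2 (H3-like) and 46.6 (duplication) scaled reads per 100 bp. With K27M the gap was 174.8 (H3.3K27M), 152.4 (duplication H3.3K27M) and 223.1 (H3-like K27M), and the groups again did not overlap. The difference between the strains with and without K27M that had no part in the choice was 140.0 scaled reads (183 ± 36.1, SD, n = 3, against 43.4 ± 4.50, SD, n = 2, two-sided exact permutation p = 0.2, the smallest possible). It was 155.6 without the library labelled duplication H3.3K27M.

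Within left X the gap to the H3.3-rich marked bins was small, and the strains with and without K27M overlapped. The selected bins exceeded the H3.3-rich bins by 10.0, 14.4 and 17.0 scaled reads per 100 bp in the wild type, H3-like and duplication strains. With K27M the gap was 12.3 (H3.3K27M), 13.8 (duplication H3.3K27M) and 36.7 (H3-like K27M), so that H3-like K27M alone lay outside the range of the strains without K27M. The difference of 5.24 scaled reads did not pass a two-sided exact permutation test (p = 1, n = 3 against n = 2, where 0.2 is the smallest possible). It turned to -0.05 on the log2 scale, and to -2.66 scaled reads without H3-like K27M. The gap to the left X bins low in H3K27me3 was larger, at 56.4 (wild type), 55.7 (H3-like) and 61.1 scaled reads (duplication) without K27M. With K27M it was 46.4 (H3.3K27M), 45.8 (duplication H3.3K27M) and 103.7 (H3-like K27M). This difference of 6.90 scaled reads did not pass either (two-sided exact permutation p = 1, n = 3 against n = 2), and it turned to -12.3 scaled reads without H3-like K27M. On the log2 scale the strains separated in the other direction, with a gap to the low bins of 0.62 ± 0.14 with K27M (SD, n = 3) and 0.82 ± 0.03 without (SD, n = 2). This log2 difference of -0.21 had p = 0.2, the smallest that the two-sided exact permutation test allows. Without the library labelled duplication H3.3K27M the differences in scaled reads were 8.82 for the H3.3-rich and 16.7 for the low bins.

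**Figure D2:**
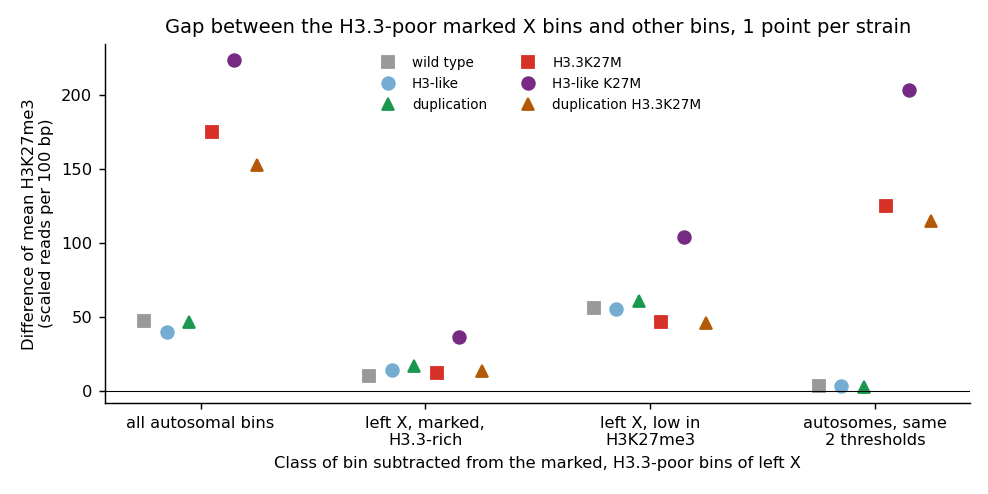
Mean input-subtracted H3K27me3 of the H3.3-poor marked bins of left X minus that of 4 other classes of bin, in scaled reads per 100 bp, with 1 point per strain. The strains with K27M stand apart from those without it against both autosomal classes (at least 114.7 against at most 47.7). Against the H3.3-rich bins only H3-like K27M lies outside the range of the strains without K27M, and against the low bins the strains with K27M lie on both sides of that range.

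Bin by bin, a difference between strains with and without K27M was tested with limma over the 5 strains that had no part in the choice. Of the 8270 bins, 7642 (92.4%) rose at an adjusted p below 0.05, whereas 18.1% of all nuclear bins were called higher. Only 7 of the selected bins (0.0846%) fell, against 28.8% of all nuclear bins. Of the H3.3-rich marked bins 91.0% rose and of the low bins of left X 76.1% rose, and of the autosomal bins that met the same thresholds 6.67% rose and 44.7% fell. The genome-wide median of the deposited log2 tracks was 0.28 for the wild type and 0.23 for H3-like but -0.84 for H3.3K27M and -0.72 for H3-like K27M, so that centring enlarges a rise with K27M. In limma the input-subtracted tracks were centred instead. The median fitted difference over the selected bins then went from 111.5 to 164.5 scaled reads. When each track was centred on its own genome-wide median, 8218 of the selected bins rose (43.3% of all nuclear bins) and 0 fell in limma (5.06% of all nuclear bins, with 1 selected bin lower at an unadjusted p below 0.05). With the wild type added, 7962 rose, against 19.5% of all nuclear bins. On the log2 scale of recovered reads 5140 rose (62.2%, against 13.8% of all nuclear bins), and the order of the classes turned, with 72.0% of the H3.3-rich and 73.6% of the low bins of left X called higher.

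The count depended on the 2 strains without K27M in this fit. Leaving out 1 of them left a lone strain without K27M, which was assumed to vary like the others. It was 1314 without H3-like, against 4.39% of all nuclear bins. Without the duplication strain limma called 0 bins in the whole genome, although 6760 of the selected bins were higher and 2 lower at an unadjusted p below 0.05 (16.7% and 26.7% of all nuclear bins). It was 4962 without H3.3K27M (11.8% of all nuclear bins) and 6883 without the library labelled duplication H3.3K27M (15.6%). With the background of the strain as a block, by which each strain with K27M was paired with its counterpart, 7800 rose over the 6 strains (19.1% of all nuclear bins). Over the 5 strains, where the block leaves H3.3K27M without a partner, limma called 0 bins, with 7215 of the selected bins higher and 4 lower at an unadjusted p below 0.05 (16.9% and 26.9% of all nuclear bins).

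The change had the same direction in most of the bins, while its size varied, most of all in the duplication pair. H3.3K27M was above the wild type by a median log2 difference of 0.80 (quartiles 0.69 and 0.90) and was the higher of the pair in 8198 of the bins (53.8% of all nuclear bins). H3-like K27M was above H3-like by a median of 1.06 (quartiles 0.87 and 1.24), and again 8198 bins had the higher value with K27M, against 45.7% of all nuclear bins. Duplication H3.3K27M was above the duplication strain by a median of 0.63 on the scale of recovered reads, with wider quartiles of 0.33 and 0.91. Over all nuclear bins the median difference was 0.16, -0.28 and -0.02 for these 3 pairs, in that order. All 3 pairs were higher with K27M in 7577 bins (91.6%), and 35.3% of all nuclear bins met this criterion. In the 2 pairs that were free of the wild type the count was 7595 (91.8%, against 38.8% of all nuclear bins). The other left X bins rose as well, and 93.9% of the H3.3-rich marked and 86.8% of the low bins were higher in all 3 pairs. On recovered reads their median differences were 0.79, 1.00 and 0.77 (H3.3-rich) and 1.07, 1.13 and 1.08 (low). Those of the selected bins were 0.76, 1.04 and 0.63 on this scale.

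**Figure D3:**
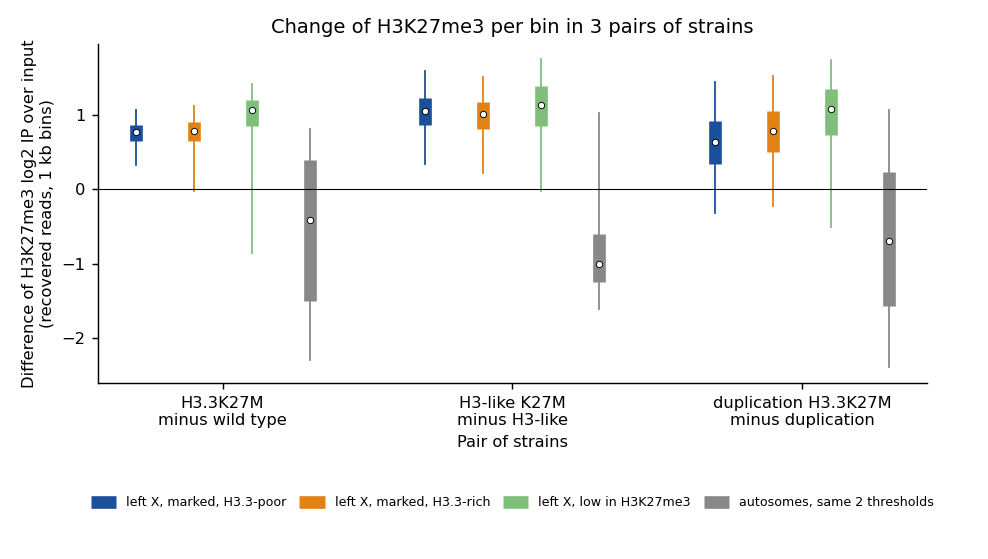
Difference in H3K27me3 log2 IP over input per 1 kb bin (recovered reads) between strains with and without K27M in 3 pairs. Points are medians, thick bars span the quartiles and thin lines the central 95% of bins. The H3.3-poor marked bins of left X lay above 0 at their medians (0.76, 1.04 and 0.63), and the medians of the autosomal bins that met the same thresholds lay below 0 in each pair.

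The bins with the largest rise by limma were chrX:1571001-1572000, chrX:1614001-1615000 and chrX:3752001-3753000. At chrX:1571001-1572000 the signal was 208 (wild type), 54.3 (H3-like) and 17.0 (duplication) scaled reads per 100 bp. With K27M it was 537 (H3.3K27M), 314 (duplication H3.3K27M) and 694 (H3-like K27M), and every strain with K27M exceeded every strain without it. The choice of these bins by their rise in the fit favours such a separation. The fitted difference was 479.5 scaled reads (SE 115.3, limma adjusted p = 0.0263). The other 2 bins rose by 461.2 (SE 100.8, limma adjusted p = 0.0203) and by 454.5 scaled reads (SE 121.0, limma adjusted p = 0.0350). These bins also carried H3K36me3 in the wild type, with log2 values of 1.17, 1.17 and 1.48 from recovered reads, far above the median of -0.20 over the selected bins. Their input was high too, at 101 to 102 reads per 100 bp in the duplication strain (median 40.8). It was 411 to 454 in H3.3K27M (median 225) and 173 to 187 in H3-like K27M (median 108). The part of coverage in this ranking by scaled reads was not tested. On the log2 scale of recovered reads the 3 fitted differences were 1.73, 1.82 and 1.78. Each of these calls was lost without H3-like, without the duplication strain, without H3.3K27M or with the block over 5 strains, with adjusted p of up to 0.131, 0.103 and 0.168 in limma, while the difference stayed at 420.8 scaled reads or more in each case.

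The bins with the largest fall were chrX:12001-13000, chrX:251001-252000 and chrX:81001-82000, all close to the left end of the chromosome. The signal at chrX:12001-13000 was 24.6 (wild type), -26.3 (H3-like) and -11.7 (duplication) scaled reads per 100 bp. With K27M it was -136.9 (H3.3K27M), -142.9 (duplication H3.3K27M) and -93.3 (H3-like K27M), and it fell by 105.3 in the fit (SE 18.6, limma adjusted p = 0.0124). At chrX:251001-252000 the fitted fall was 58.3 scaled reads (SE 12.2, limma adjusted p = 0.0182). At chrX:81001-82000 it was 45.5 (SE 12.2, limma adjusted p = 0.0358). None of these 3 calls held when each track was centred on its genome-wide median, and the difference at chrX:81001-82000 then turned to 7.46. Each was also lost in at least 2 fits that left out a strain and with the block over 5 strains.

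H3.3 with K27M was distributed over these bins much like H3.3 without it. The H3.3 OLLAS values, which chose the bins, had a median log2 of -0.52. In the H3.3K27M OLLAS strain, which did not, the median was -0.56 (quartiles -0.81 and -0.28) and 7818 bins (94.5%) were below 0. This share was partly set by the choice, because both tracks follow each other closely over all nuclear bins (Pearson r = 0.94, n = 100269 bins). The difference between these strains had a median of -0.03 (quartiles -0.15 and 0.09). The tracks were closely related across the bins (Pearson r = 0.86, Spearman rho = 0.87, n = 8270 bins of 2 libraries, which share neighbours). By comparison, the H3.3-rich marked bins of left X had a median of 0.31 in H3.3K27M OLLAS, the autosomal bins that met the same thresholds -0.52 and all autosomal bins -0.08.

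Within the selected bins, H3K27me3 varied little over the range of tagged H3.3K27M that the choice of the bins left. The 2068 bins with the least H3.3K27M OLLAS had a median H3K27me3 of 1.27 in H3.3K27M, and the 2068 bins with the most had 1.19. In H3-like K27M the medians were 1.60 and 1.41, respectively. The difference between H3.3K27M and the wild type was 0.81 in the former bins and 0.80 in the latter. The relation of H3.3K27M OLLAS to H3K27me3 of H3.3K27M was weak across the bins (Pearson r = -0.13, Spearman rho = -0.22, n = 8270 bins that share neighbours). Over all nuclear bins it was stronger (Pearson r = -0.47, Spearman rho = -0.46, n = 100269 bins). The choice of bins below 0 in H3.3 OLLAS, which H3.3K27M OLLAS follows closely, had narrowed the range beforehand.

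The autosomal bins that met the same thresholds varied more. X and autosomal bins were compared in 16 strata matched on wild-type H3K27me3 and on H3.3K27M OLLAS. Among bins with wild-type H3K27me3 between 0.4 and 0.6, the median in H3.3K27M went from 1.27 in the X bins with H3.3K27M OLLAS below -0.75 to 1.22 in those between -0.25 and 0. In the autosomal bins of the same strata it went from 0.93 to -0.42. The level of the X bins thus changed little over a range of tagged H3.3K27M in which that of the autosomal bins crossed 0. In H3-like K27M the X bins of these strata went from 1.62 to 1.47 and the autosomal bins from -0.27 to -0.71. The X bins were above the autosomal bins in all 16 strata for H3.3K27M (by 0.34 to 2.47), for H3-like K27M (by 1.61 to 2.25) and for duplication H3.3K27M (by 0.35 to 2.19). Without K27M the medians differed little, by between -0.22 and 0.11 in H3-like, where the X bins were higher in 12 of 16 strata, and by between -0.28 and 0.25 in the duplication strain, where they were higher in 10 of 16.

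**Figure D4:**
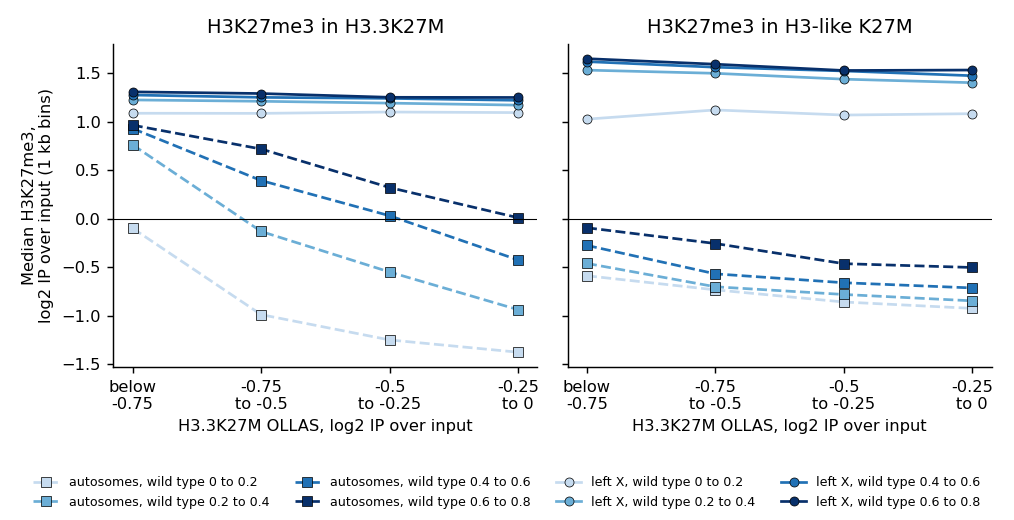
Median H3K27me3 (log2 IP over input, 1 kb bins) in H3.3K27M (left) and H3-like K27M (right) by class of H3.3K27M OLLAS (x axis) and of wild-type H3K27me3 (shade). Circles are the H3.3-poor marked bins of left X with H3.3K27M OLLAS below 0, which lay between 1.03 and 1.65 in all strata, and squares are autosomal bins, which went as low as -1.37.

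Across the 8270 bins the correlations of H3.3K27M with the other strains with K27M were higher than those within the 3 pairs of strains with and without K27M. For H3K27me3 of H3.3K27M, Pearson r was 0.72 with H3-like K27M (Spearman rho 0.65) and, on recovered reads, 0.72 with duplication H3.3K27M (rho 0.51). Its r with the wild type was 0.30 (rho 0.31), and that of H3-like with H3-like K27M was 0.37 (rho 0.27). The duplication strain and duplication H3.3K27M had an r of 0.10 (rho 0.06). These coefficients describe 8270 bins of single libraries, which share neighbours and differ in depth. The choice of the bins cut the wild-type values at 0, and over all nuclear bins r of H3.3K27M with the wild type was 0.68. Without K27M, r over the selected bins was 0.48 between the wild type and H3-like. On recovered reads it was 0.23 between the wild type and the duplication strain. The H3.3-rich marked bins had the same order. There r of H3.3K27M was 0.71 and 0.74 with the other strains with K27M, and r within the pairs was 0.06, 0.37 and 0.13.

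H3K36me3 was low on most of these bins but less so than on the H3.3-rich marked bins. In the wild type the median log2 from recovered reads was -0.20 over the selected bins (quartiles -0.43 and 0.04). It was -0.66 over the H3.3-rich bins, 0.00 over the low bins of left X and 0.18 over the autosomes. In H3.3K27M the medians were -0.26, -0.67, 0.25 and -0.09, in the same order. Over the selected bins H3.3K27M and the wild type differed in H3K36me3 by a median of -0.03 (quartiles -0.29 and 0.25), where all nuclear bins had a median difference of -0.14. These are the shallowest tracks, with a median of 33.0 (wild type) and 31.2 (H3.3K27M) IP reads per 100 bp.

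Within the selected bins, the change in H3K27me3 differed more along wild-type H3K36me3 than along H3.3K27M OLLAS, whose range the choice had narrowed. From the 2068 bins with the least H3K36me3 to the 2068 with the most, the difference between H3-like K27M and H3-like went from 0.95 to 1.19, and that between duplication H3.3K27M and the duplication strain from 0.47 to 0.86. The difference between H3.3K27M and the wild type went only from 0.78 to 0.81. In the duplication strain itself the median H3K27me3 was 0.69 in the former bins and 0.36 in the latter. The input of that strain moved with it, from 35.7 to 50.2 reads per 100 bp, and its part in the trend was not tested. The input of the wild type (278 to 322 reads) and of H3.3K27M (208 to 253) rose as well, as did that of H3-like (101.2 to 108.1).

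Among bins with at least 10 input reads per 100 bp, those with the highest wild-type H3K36me3 formed a single stretch of 3 bins, chrX:173001-176000, with log2 values of 1.77 to 1.80. H3K27me3 in H3.3K27M was -0.49, -0.39 and -0.64 in these bins, from left to right, and 0.12, 0.23 and 0.46 in H3-like K27M. All 3 lay far below the medians of the selected bins in both strains. H3.3K27M was below 0 in 48 of the selected bins, and H3-like K27M was below 0 in 39. In H3-like K27M, 89.5% of all autosomal bins and 82.3% of those that met the same thresholds were below 0.

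The lowest H3K27me3 with K27M was again found at the left end. In H3.3K27M the 3 lowest bins, among those with at least 10 input reads per 100 bp, were chrX:9001-10000 (-1.66), chrX:12001-13000 (-1.38) and chrX:13001-14000 (-1.36). In H3-like K27M they were chrX:12001-13000 (-0.67), chrX:251001-252000 (-0.56) and chrX:9001-10000 (-0.52). All 4 bins stood next to a bin low in H3K27me3, at a distance of 1 kb. For chrX:13001-14000 the wild-type value was 0.42, close to the median of the selected bins. That of H3-like was 0.62, above their upper quartile of 0.54, but 0.24 from recovered reads, with 53.9 input reads per 100 bp (median 104.5). By contrast, chrX:9001-10000 and chrX:12001-13000 were just inside the threshold in the wild type, at 0.02 and 0.03.

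Among bins with at least 10 input reads per 100 bp, those with the highest H3.3K27M OLLAS still had H3K27me3 above 0 with K27M. These were chrX:4049001-4050000, chrX:110001-111000 and chrX:6548001-6549000, with H3.3K27M OLLAS log2 values of 0.53, 0.48 and 0.45. The first had only 10.8 input reads per 100 bp in H3.3K27M OLLAS (median 60.9) and 17.3 in H3-like K27M (median 108). On recovered reads its H3.3 OLLAS was 0.12, so that its values are uncertain. H3K27me3 of these bins was 1.19, 1.12 and 1.15 in H3.3K27M, each below the median of the selected bins in that strain. In H3-like K27M it was 1.96, 1.87 and 1.36, where the last was below the median of 1.51. The lowest H3.3K27M OLLAS values were -1.90, -1.80 and -1.74, at chrX:1820001-1821000, chrX:10750001-10751000 and chrX:12119001-12120000. H3K27me3 in H3.3K27M was 1.34, 0.81 and 1.36 there, and in H3-like K27M it was 1.29, 0.50 and 1.71, so that the order of H3.3K27M OLLAS was not that of H3K27me3 in these bins.

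The selected bins lay in long stretches. They formed 873 runs of consecutive bins with a median length of 4 kb, of which 231 (26.5%) were a single bin and 272 were 10 kb or longer. The long runs held 6515 of the bins (78.8%). Of the 1746 ends of runs, 1414 (81.0%) bordered an H3.3-rich marked bin and 331 a bin low in H3K27me3. The longest run was 82 kb, at chrX:5369001-5451000, where median H3K27me3 was 0.45 (wild type), 1.29 (H3.3K27M) and 1.62 (H3-like K27M). The lowest value in this run was 0.797 (H3.3K27M) and 0.919 (H3-like K27M).

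The next longest runs were alike in their levels. They were chrX:605001-685000 and chrX:10441001-10521000, both of 80 kb, chrX:7870001-7947000 of 77 kb and chrX:11129001-11205000 of 76 kb. Their median H3K27me3 in H3.3K27M was 1.20, 1.29, 1.29 and 1.28. In H3-like K27M it was 1.48, 1.70, 1.61 and 1.70, so that chrX:605001-685000, the run nearest to the left end, was the lowest in both strains. Bins in runs of up to 3 kb had lower medians than bins in runs of 20 kb or more, at 1.16 against 1.25 in H3.3K27M and 1.28 against 1.56 in H3-like K27M.

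H3K27me3 with K27M was lower near the borders of the runs, most of all in H3-like K27M. Next to a bin low in H3K27me3, at 1 kb, its median was 1.09, and it was 1.37 at 3 kb and 1.56 at 21 kb or more. In H3.3K27M the medians at these distances were 1.09, 1.17 and 1.25. The wild type, whose low bins define the border, went from 0.19 to 0.41 and 0.45, and H3-like from 0.09 to 0.41 and 0.46. Towards H3.3-rich marked bins the decline was less steep in H3-like K27M, from 1.60 at 21 kb or more to 1.37 at 1 kb. In H3.3K27M it was from 1.27 to 1.18. H3.3K27M OLLAS went the other way there and was -0.17 at 1 kb. This was partly set by the choice, because H3.3 OLLAS, which it follows closely, defines the H3.3-rich bins. Wild-type H3K36me3 was lower next to the H3.3-rich bins than far from them (-0.40 and -0.11). Neighbouring bins can share reads, which bears on the values at 1 kb.

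**Figure D5:**
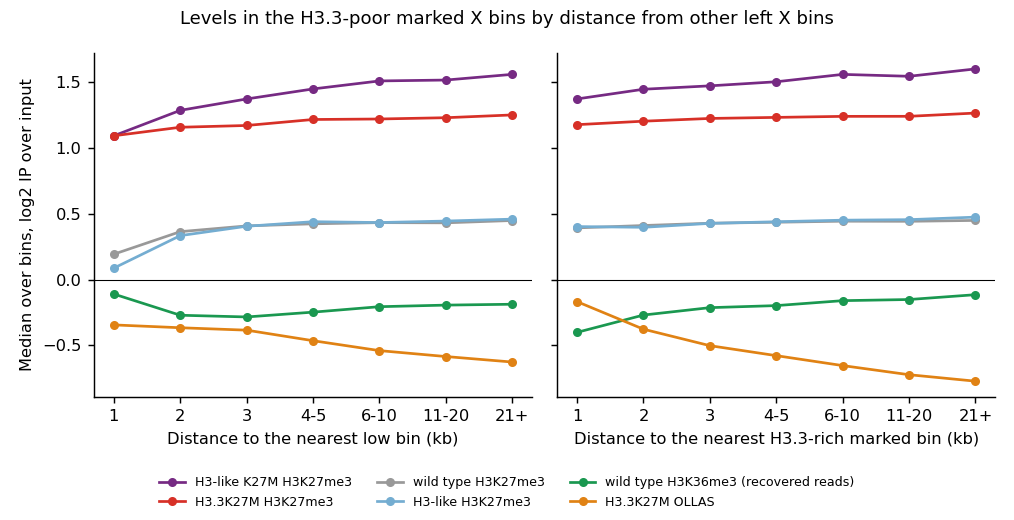
Medians over the H3.3-poor marked bins of left X (log2 IP over input) by distance in kb to the nearest bin low in H3K27me3 (left) and to the nearest H3.3-rich marked bin (right). H3-like K27M goes from 1.09 to 1.56 with distance from low bins and from 1.37 to 1.60 with distance from H3.3-rich bins, and H3.3K27M stays within 1.09 and 1.27.

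Along left X the bins were found in each of the 12 complete windows of 1 Mb, where they made up between 55.7% of the bins (in window 3 from the left end) and 78.3% (window 2). Bins low in H3K27me3 were most frequent in window 1, at 22.7%. The median H3K27me3 of the selected bins was between 1.14 (window 1) and 1.26 (window 7) in H3.3K27M. It was between 1.30 (window 3) and 1.59 (window 11) in H3-like K27M. The median difference between H3.3K27M and the wild type was 0.71 to 0.84 over the windows, that between H3-like K27M and H3-like 0.91 to 1.13, and that between duplication H3.3K27M and the duplication strain 0.53 to 0.70. None of the 12 windows went against the direction found over all selected bins. Wild-type H3K36me3 was highest in window 2 (0.24) and lowest in window 9 (-0.29).

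The choice of the bins had sharp limits in values that ran on without a break. Just inside the H3K27me3 threshold were chrX:10609001-10610000 and chrX:9295001-9296000, with wild-type log2 values of 0.00020 and 0.00075, and just outside were chrX:955001-956000 and chrX:11413001-11414000, at -0.0013 and -0.0022. Just inside the H3.3 threshold were chrX:9221001-9222000 and chrX:983001-984000, with H3.3 OLLAS log2 values of -0.00031 and -0.00049. Just outside were chrX:3222001-3223000 and chrX:7170001-7171000, at 0.00015 and 0.00043. In all, 424 of the selected bins (5.13%) were within 0.05 of a threshold. With H3.3K27M OLLAS in place of H3.3 OLLAS 8162 bins met the thresholds, and 7818 of the selected bins were among them (94.5% of the selected bins, 95.8% of the alternative). With H3-like in place of the wild type 8008 bins met them, of which 7973 were shared (96.4% and 99.6%).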

How the data were processed

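Groups were taken from the strain and antibody in the labels, with 1 library in each. Per the study's methods, the authors mapped paired reads with Novoalign to build WBcel215, took the maximum number of reads per bin, scaled them to equal read numbers and merged the replicates that passed quality control; smoothing of the tracks was stated without its extent. The deposited log2 tracks hold log2 of IP over input and the other deposited tracks hold input-subtracted scaled reads (other unit, may be negative). Of 27 tracks, 21 were used. A further 4, which matched no described library, and 2 in bins of 10 kb were not used here, so that the oncohistone of the untagged strains was not analysed here. The mitochondrial genome was left out.

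Tracks in 100 bp bins were averaged to 1 kb. Whole IP and input reads were recovered from them (99.98% to 99.99% of bins solved, tolerance 2e-08), and log2 ratios were computed after adding 1 scaled read to each of IP and input. Recovered reads give depth and ratios, not a count test, and are not library totals. Precision is limited by 1 library per group and, in H3K36me3, by depth.

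Strains were the replicates of K27M: limma 3.58.1 (R 4.3.3, lmFit and eBayes) was fitted to 100265 bins with Benjamini-Hochberg adjustment at 0.05, and single values were compared by exact permutation of strains. In simulated data, 200 bins shifted by 118 scaled reads gave 0% called, 8270 gave 87.2% (4.89% of calls false) and 50132 gave 94.7%, so that scattered changes of this size in a small number of bins would go uncalled. The simulated bins varied independently, whereas real neighbours can share reads and the scaling of a track touches all its bins. The shares called and false in the real fit can therefore differ from these. Python 3.11.15 with numpy 2.4.6, pandas 2.3.3 and matplotlib 3.10.9 were used. Alternatives were the scale, centring of tracks on genome-wide medians, means or medians, stricter thresholds (0.2 and -0.2), an input minimum, bins of value 0, adding the wild type and leaving out each strain. A block by strain background was added after the data were seen.

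Named bins were the 5 longest runs, the 3 largest rises and 3 largest falls past the limma threshold with the same direction in the H3-like and duplication pairs, the 3 lowest in H3K27me3 with K27M in each of H3.3K27M and H3-like K27M, the 3 highest and 3 lowest in H3.3K27M OLLAS, the 3 highest in wild-type H3K36me3 and the bins next to each threshold, with at least 10 input reads per 100 bp. The members, classes and tests were chosen with earlier results of these data known. No genome or annotation of build WBcel215 was used here, and no gene or sequence is given for a bin.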

Additional observations from a re-analysis of the deposited data

Results flagged for a closer look

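In input-subtracted reads, the gap between the H3.3-poor marked bins and other bins of left X changed in opposite directions between pairs of strains, and this difference between pairs was not tested. Relative to the H3.3-rich marked bins, the gap in input-subtracted H3K27me3 was larger with K27M by 2.28 scaled reads per 100 bp in H3.3K27M and by 22.3 in H3-like K27M, and it changed by -3.20 in the library labelled duplication H3.3K27M. Relative to the bins low in H3K27me3 the gap changed by -10.0 in H3.3K27M, by 48.0 in H3-like K27M and by -15.3 in duplication H3.3K27M. Both gaps thus widened in scaled reads in H3-like K27M alone. On the log2 scale the gap to the low bins changed in 1 direction, by -0.14, -0.02 and -0.35 in the same order.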

How the results depend on the processing

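A replicate block by the background of the strain was an alternative chosen after seeing the data. With it, 7800 bins rose and 6 fell over 6 strains (wild type included), against 19.1% and 30.1% of all nuclear bins. Over the 5 strains 0 rose and 0 fell in limma. At an unadjusted p below 0.05, 7215 were higher and 4 lower there, against 16.9% and 26.9% of all nuclear bins. Both gaps to autosomal bins kept their direction in all 3 pairs (138.6 and 144.2 scaled reads), where an exact test over sign changes of the pairs gave p = 0.25, the smallest possible. The gaps to the autosomes and to autosomal bins that met the same thresholds kept their direction under every alternative run, at 120.2 to 155.6 and 116.4 to 160.6 scaled reads when single strains were left out. The gap to the H3.3-rich marked bins turned to -0.053 on the log2 scale and ranged from -2.66 (without H3-like K27M) to 9.56 without single strains. The gap to the low bins turned to -9.02 with medians over bins and to -0.21 on the log2 scale, and ranged from -12.3 (without H3-like K27M) to 16.7. The number of bins that rose by limma depended most on the strains without K27M, as given above. It was 4962 without H3.3K27M (11.8% of all nuclear bins) and 7767 without H3-like K27M (26.3%). Without the library labelled duplication H3.3K27M it was 6883 (15.6%). The number that fell ranged from 0 to 13, and was 16 with the wild type added, 0 after centring, 3 with the input minimum and 4 with stricter thresholds. The fall at chrX:81001-82000 turned to 7.46 after centring. All other named calls kept their direction. Over all named calls, that at chrX:81001-82000 included, 27 values lost significance.

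Median differences kept their sign. For H3.3K27M against the wild type they were 0.78 as a mean, 1.92 after centring, 0.76 from recovered reads and 0.80 with stricter thresholds. For H3-like K27M against H3-like they were 1.04 as a mean, 2.01 after centring, 1.04 from recovered reads and 1.07 with stricter thresholds. For the duplication pair they were 0.61 as a mean, 1.61 after centring, 0.60 with stricter thresholds and 85.5 in scaled reads per 100 bp. Median H3.3K27M OLLAS was -0.43 after centring, -0.65 with stricter thresholds and -154.5 in input-subtracted reads of 1 kb bins. Median H3K36me3 was -0.49 in the 10 kb track, -13.2 in scaled reads and -0.17 with stricter thresholds in the wild type, and -0.44, -16.4 and -0.25 in H3.3K27M. The causes were not tested. Libraries of low depth (H3K36me3, duplication) limit statements on single bins, and the scaling to equal reads limits statements on total amounts.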
